A study of Mus musculus with 8 samples.

Results

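Small leucine-rich proteoglycans are secreted matrix proteins built on a run of leucine-rich repeats, and 10 of their genes were followed here: Aspn, Dcn, Bgn, Lum, Fmod, Prelp, Ogn, Omd, Podn and Ecm2. They were taken by symbol from the count table of mouse induced cardiomyocytes, where each had a row of its own, 10 of 53921 rows that name a gene. Induced cardiomyocytes are fibroblasts pushed towards a heart muscle identity by forced expression of transcription factors. The cells, labelled Induced cardiomyocytes(Neo), all received MGT, the usual short form for the factors Mef2c, Gata4 and Tbx5. They also carried lentivirus for 5 days with either shNT, taken as the control hairpin, or shGrhl3, a hairpin against the Grainyhead-like factor gene Grhl3. RNA-seq gave 2 libraries in each group, collected on day 5, with 16102839 to 19822541 counts per library. Nothing in the labels tells whether replicate libraries were grown as separate cultures. The p-values therefore measure only library-to-library spread, possibly technical. The promoter that drives MGT or the hairpin is not given in the labels.

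In connective tissue these proteins coat collagen fibrils and set fibril width and spacing. Several also bind TGF-beta or cell surface receptors, so that they can hold or release signals in the matrix. Class I holds decorin, biglycan and asporin, class II holds fibromodulin, lumican, PRELP and osteomodulin, class III holds osteoglycin, and podocan belongs to a later class. Ecm2 shares the repeats and, in the mouse genome, lies beside Aspn. Cardiac fibroblasts are a main source of decorin, biglycan and lumican in the heart.

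A set of general measures was compared between the hairpin groups. Grhl3 had 31 and 14 counts in shNT and 11 and 19 in shGrhl3, and a fall was not detected at this depth (log2 fold change -0.69, SE 0.56, adjusted p = 0.362 in edgeR's quasi-likelihood test, which is the test behind every adjusted p below). With 1 library left out the value ranged from -1.17 to -0.18, the latter without shNT replicate 1 (adjusted p = 0.915). Of 13 cardiomyocyte markers, all tested, 6 were higher and 1 lower in shGrhl3, and their summed level was 4815 and 4837 CPM (counts scaled to TMM-adjusted library size) in shNT against 5805 to 5984 in shGrhl3. Tnnt2, which did not pass, held 3135 and 3293 CPM of that sum in shNT against 3311 and 3105 CPM in shGrhl3. The rise in the sum lay mainly in Myl7 (mean 708 against 1162 CPM), Actc1 (277 against 545 CPM) and Myh6 (20.6 against 251 CPM). Of 10 fibroblast markers 2 were higher and 6 lower, with summed levels of 10742 and 10999.5 against 11456 and 12214 CPM. That sum largely follows Col1a1, a higher marker with 4242 and 4159 CPM in shNT against 5667 and 6500 CPM in shGrhl3. Of 8 myofibroblast markers 0 were higher and 4 lower, with summed levels of 7571 and 7169 against 6579 and 6419 CPM. Of 13 macrophage markers 9 could be tested, of which 7 were lower, Mrc1 did not pass and 1, Csf1r, was higher (log2 fold change 1.30, adjusted p = 1.13e-06). The summed level of the 13 was 654 and 900.1 CPM in shNT against 149.8 and 119.8 CPM in shGrhl3. Lyz2 alone held 454 and 645 CPM of it in shNT against 102 and 75.7 CPM in shGrhl3. Counts of the rRNA gene Rn18s were 110296 and 322261 in shNT against 19008 and 28963 in shGrhl3. The part of these shifts in the proteoglycan results was not tested. In bulk RNA, fewer cells of a type and less RNA per cell cannot be told apart.

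All 10 proteoglycan genes passed the filter on low counts, and 8 of them passed the test. In shGrhl3 cells 5 were lower (Aspn, Ecm2, Dcn, Ogn and Bgn), 3 were higher (Podn, Prelp and Fmod), and Lum and Omd did not pass. Among all 15324 genes tested, 17.9% were called lower and 17.1% higher, 35.0% in all. The median log2 fold change of the 10 genes was -0.48, beside -0.01 for all tested genes. The libraries of the groups did not overlap in 9 of the 10 genes, against 66.5% of all tested genes, and Omd was the exception. All 3 class I genes were lower, whereas the called class II genes and Podn were higher.

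**Figure D1:**
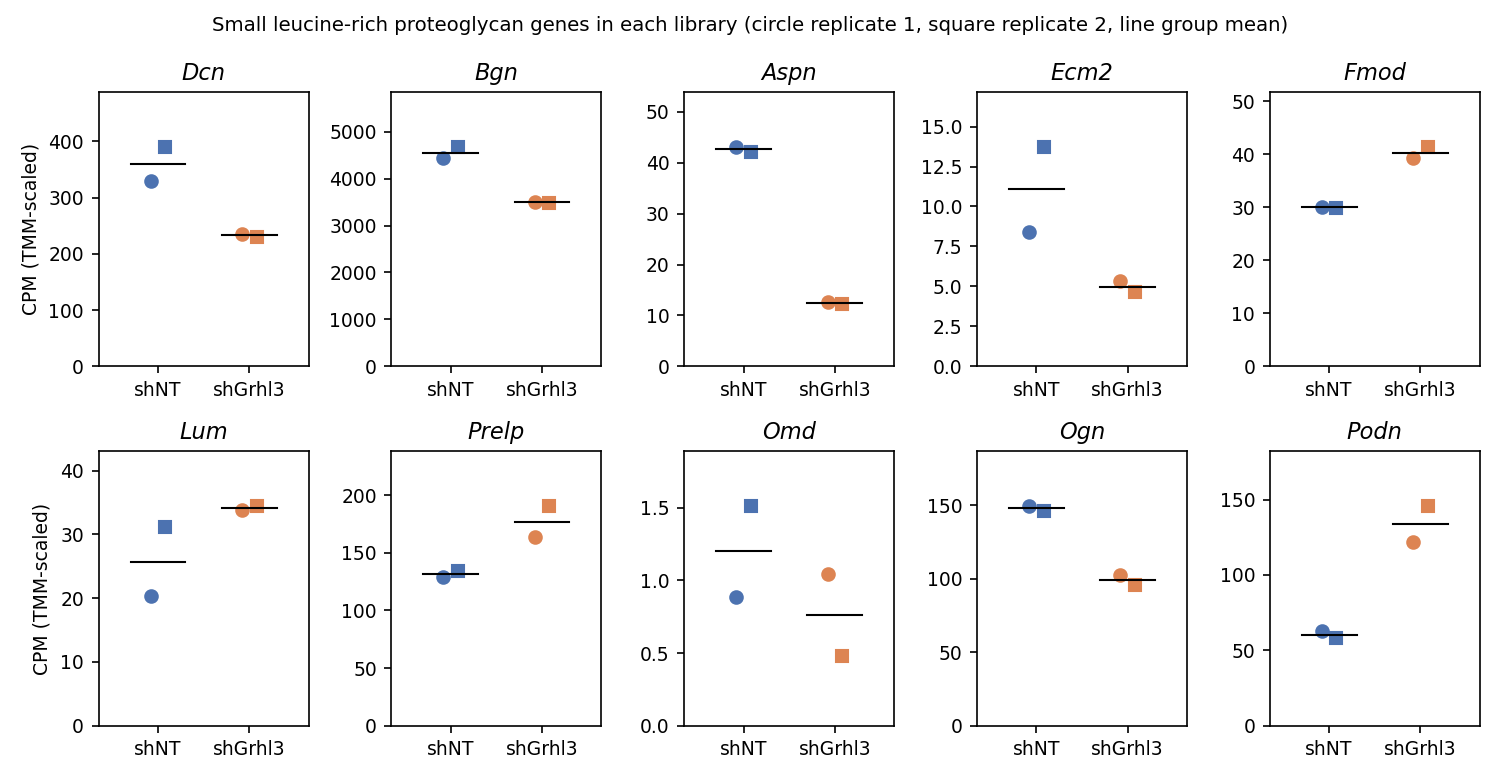
Level of each of the 10 genes in each library, in TMM-scaled CPM on axes that start at 0, with blue for shNT, orange for shGrhl3 and a line at the group mean. Aspn stood near 42.6 CPM in shNT and 12.5 CPM in shGrhl3, Podn moved the other way, and the Omd libraries overlapped.

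Aspn encodes asporin, a class I protein with an aspartate-rich start that binds collagen and TGF-beta1. It lies on chromosome 13 (49544443 to 49567565, mm10). Its level was 43.1 and 42.1 CPM in the shNT libraries and 12.7 and 12.2 CPM in the shGrhl3 libraries, from 825 and 669 counts against 255 and 228. Each shGrhl3 library was far below each shNT library, and the libraries of a group lay close together. The fall was 3.42-fold (log2 fold change -1.77, SE 0.12, 95% interval -2.03 to -1.52, adjusted p = 1.58e-10). It was the widest difference of the 10 genes, and 1.46% of tested genes had a lower log2 fold change.

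Dcn encodes decorin, which binds collagen fibrils and limits their lateral growth, and which also binds TGF-beta and growth factor receptors (chromosome 10, 97479500 to 97518163). Its level was 329 and 390.4 CPM in shNT and 236 and 231 CPM in shGrhl3. The shNT libraries differed from each other more than the shGrhl3 libraries did, and the groups did not overlap. The fall was 1.54-fold (log2 fold change -0.62, SE 0.09, adjusted p = 5.83e-06).

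Bgn encodes biglycan, the close relative of decorin, whose soluble form is a ligand of the receptors Tlr2 and Tlr4 (chromosome X, 73483601 to 73495936). Its level was 4433 and 4675 CPM in shNT and 3506 and 3488 CPM in shGrhl3. Both shGrhl3 libraries were lower, by a smaller factor than for the other falling members (1.30-fold, log2 fold change -0.38, SE 0.08, 95% interval -0.54 to -0.22, adjusted p = 0.000437). Ecm2, a matrix protein gene that carries the same kind of repeats (chromosome 13, 49504810 to 49532789), had 161 and 218 counts in shNT and 107 and 87 in shGrhl3. Its level was 8.41 and 13.7 CPM against 5.34 and 4.66 CPM, with the shNT libraries apart from each other but both above the shGrhl3 libraries. The log2 fold change was -1.14 (SE 0.23, adjusted p = 0.000485), and without shNT replicate 2 it was -0.75 (adjusted p = 0.0306).

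The called class II genes, Fmod and Prelp, were both higher, and Lum and Omd did not pass. Fmod encodes fibromodulin, a keratan sulfate proteoglycan that binds collagen and takes part in fibril assembly (chromosome 1, 134037254 to 134048280). Its level was 30.1 and 29.8 CPM in shNT and 39.2 and 41.4 CPM in shGrhl3, a rise of 1.34-fold (log2 fold change 0.43, SE 0.11, adjusted p = 0.00405). Prelp, whose product binds collagen and the basement membrane proteoglycan perlecan, lies on the same chromosome (133910304 to 133930102). Its level was 129 and 134 CPM in shNT and 163 and 191 CPM in shGrhl3, and it also rose by 1.34-fold (log2 fold change 0.43, SE 0.09, adjusted p = 0.000681). For both genes the groups did not overlap, and the shGrhl3 libraries of Prelp were the more spread.

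Lum encodes lumican, a keratan sulfate proteoglycan that binds the same collagen region as fibromodulin (chromosome 10, 97565501 to 97572703). Its level was 20.3 and 31.2 CPM in shNT and 33.8 and 34.4 CPM in shGrhl3. The first shNT library was low, and the second lay close to the shGrhl3 pair. The difference missed the threshold (log2 fold change 0.41, SE 0.16, 95% interval 0.07 to 0.76, adjusted p = 0.0587). It rested on shNT replicate 1, since the log2 fold change was 0.13 (adjusted p = 0.608) without that library and 0.75 (adjusted p = 4.24e-05) without shNT replicate 2. Omd, the gene of osteomodulin, a proteoglycan best known from bone (chromosome 13, 49582462 to 49592612), had 17 and 24 counts in shNT and 21 and 9 in shGrhl3. At 0.888 and 1.51 CPM against 1.05 and 0.482 CPM the groups overlapped, and a difference was not detectable at this depth (log2 fold change -0.62, SE 0.57, 95% interval -1.80 to 0.56, adjusted p = 0.433).

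Ogn encodes osteoglycin, also called mimecan, a class III protein of collagen-rich matrix (chromosome 13, 49608015 to 49624501). Its level was 149 and 146 CPM in shNT and 102 and 95.9 CPM in shGrhl3, with groups well apart and libraries of a group close. The fall was 1.49-fold (log2 fold change -0.58, SE 0.09, adjusted p = 1.40e-05). Podn encodes podocan, a proteoglycan known in mouse to restrain smooth muscle cell growth (chromosome 4, 108014793 to 108031954). Its level was 62.8 and 58.1 CPM in shNT and 122 and 146 CPM in shGrhl3, from 1201 and 923 counts against 2445 and 2721. Both shGrhl3 libraries stood far above the shNT pair, a rise of 2.21-fold (log2 fold change 1.15, SE 0.10, 95% interval 0.94 to 1.35, adjusted p = 5.31e-09). Of all tested genes, 96.7% had a lower log2 fold change than Podn.

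**Figure D2:**
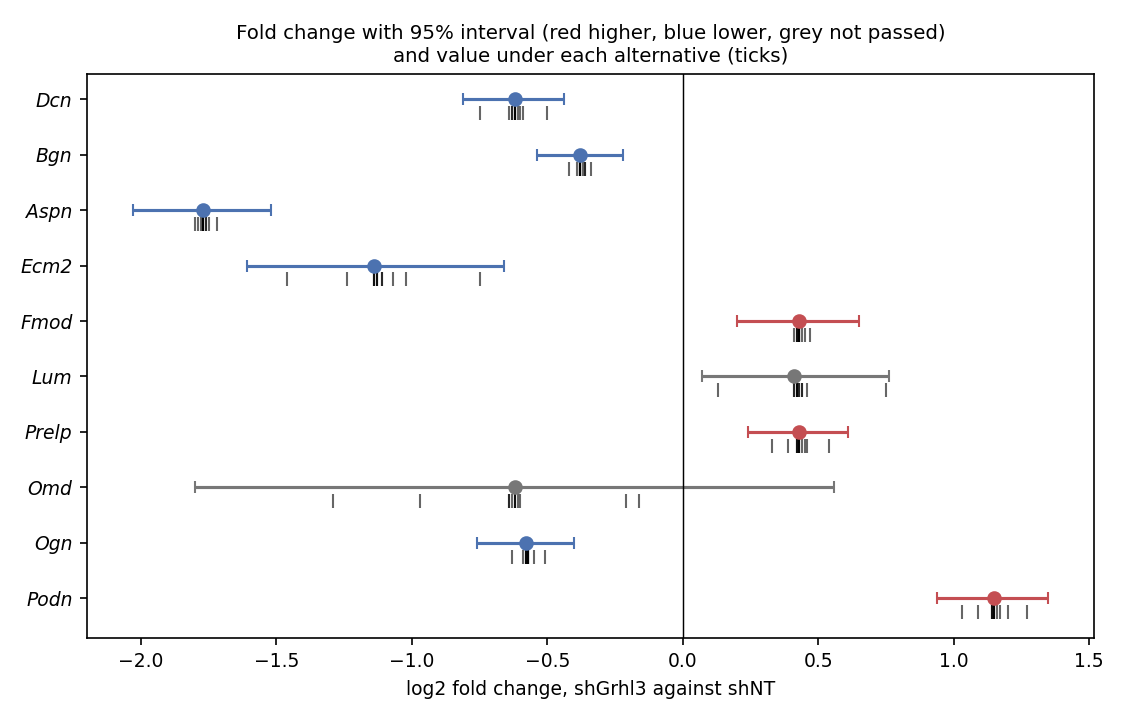
Log2 fold change of shGrhl3 against shNT for the 10 genes, as a point with its 95% interval, and black ticks for the value under each of the 13 alternatives (12 for Omd). The 5 falling genes lay between -1.77 and -0.38 and the 3 rising genes between 0.43 and 1.15, while the ticks of Lum spread from 0.13 to 0.75 and those of Omd from -1.29 to -0.16.

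The family total was lower in shGrhl3 cells and its make-up differed. The summed level was 5206 and 5523 CPM in shNT and 4221 and 4244 CPM in shGrhl3, a ratio of 0.789 between the group means, given without a test. Bgn supplied most of the counts, 84.9 ± 0.353% in shNT and 82.6 ± 0.615% in shGrhl3 (SD, n = 2), so the total mainly follows Bgn. Without Bgn the summed level was 773 and 848 CPM in shNT against 715 and 756 CPM in shGrhl3, a ratio of 0.908.

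Among the other 9 genes, shares of counts shifted from Dcn, Ogn and Aspn to Podn and Prelp. Dcn held 44.3 ± 2.45% of these counts in shNT and 31.7 ± 1.69% in shGrhl3, and Aspn 5.27 ± 0.429% and 1.70 ± 0.116% (SD, n = 2). Podn held 7.49 ± 0.892% and 18.2 ± 1.57%, and Prelp 16.3 ± 0.577% and 24.0 ± 1.67% (SD, n = 2). These shares are of read counts, not counts per length, so they do not rank the genes by transcript number.

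Ratios of counts between 2 members within a library need no scaling between libraries. The ratio of Podn to Aspn counts was 1.46 and 1.38 in shNT and 9.59 and 11.9 in shGrhl3. The ratio of Lum to Dcn counts was 0.0616 and 0.0798 in shNT and 0.144 and 0.149 in shGrhl3. For Prelp to Ogn it was 0.863 and 0.918 against 1.60 and 1.99. In these 3 ratios both shGrhl3 libraries were above both shNT libraries, as the choice of a higher or rising member over a fallen one fixes. Between the class I genes Dcn and Bgn, both of which fell, the ratio was 0.0743 and 0.0835 in shNT against 0.0672 and 0.0662 in shGrhl3. The pairs were chosen after the values were seen and are given as a description.

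**Figure D3:**
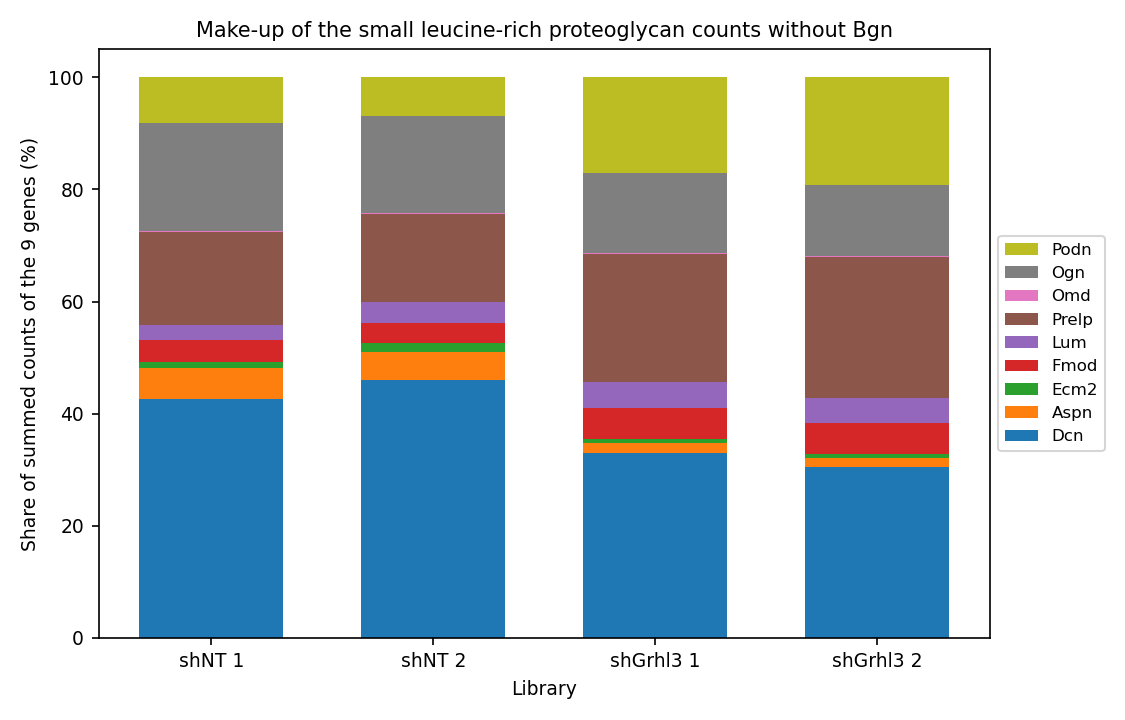
Share of each gene in the summed counts of the 9 genes other than Bgn, in each library, as stacked bars in percent. The Dcn block, at the base, was shorter in both shGrhl3 libraries (mean 31.7%) than in the shNT libraries (mean 44.3%), and the Podn block, at the top, was taller (18.2% against 7.49%).

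Most of the genes lie in linked groups, and the groups were not alike. On chromosome 13, Ecm2, Aspn, Omd and Ogn follow each other within 119.7 kb, and the 3 that were called all fell, with log2 fold changes of -1.14, -1.77 and -0.58 for Ecm2, Aspn and Ogn. On chromosome 1, Prelp and Fmod, within 138.0 kb, both rose by 0.43. On chromosome 10, the neighbours Dcn and Lum, within 93.2 kb, had values of opposite sign, -0.62 and 0.41, of which the second did not pass.

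The genes around these groups were read as well. The gene Cenpp, a centromere protein gene whose span covers the 4 members on chromosome 13, had 43 and 29 counts in shNT and 72 and 56 in shGrhl3 (log2 fold change 0.69, SE 0.34, adjusted p = 0.120). Its value was thus of the opposite sign to theirs. No source used here gives the strand setting of the counting, so reads of genes that overlap Cenpp could not be separated from it. Of the flanking genes there, Ippk had a log2 fold change of 0.40 (adjusted p = 0.0283) and Nol8 of -0.06 (adjusted p = 0.695). The Ippk call was lost with DESeq2 (adjusted p = 0.0909) and without shNT replicate 1 (0.0715), shNT replicate 2 (0.145) or shGrhl3 replicate 2 (0.0946). Another 4 flanking genes were called in the same direction as the nearest member, where 17.1% of all tested genes were called higher and 17.9% lower. The flanking genes Kera, Atp2b3 and Slc1a7 were too low to test. Whether members and their neighbours share regulation was not tested. Btg1, the nearest listed gene on the other side of Dcn but far from it, had a log2 fold change of -0.52 (adjusted p = 0.000135), Haus7 beside Bgn of -0.44 (adjusted p = 0.0101), Btg2 beside Fmod of 0.25 (adjusted p = 0.0137) and Scp2 beside Podn of 0.39 (adjusted p = 0.000755). The calls of Haus7 (adjusted p = 0.0609) and Btg2 (0.165) ended without shNT replicate 1, and that of Btg2 (0.135) also without shNT replicate 2. Beside Prelp, the family member Optc had 6 and 10 counts in shNT and 24 and 15 in shGrhl3 (log2 fold change 1.11, SE 0.63, adjusted p = 0.185).

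**Figure D4:**
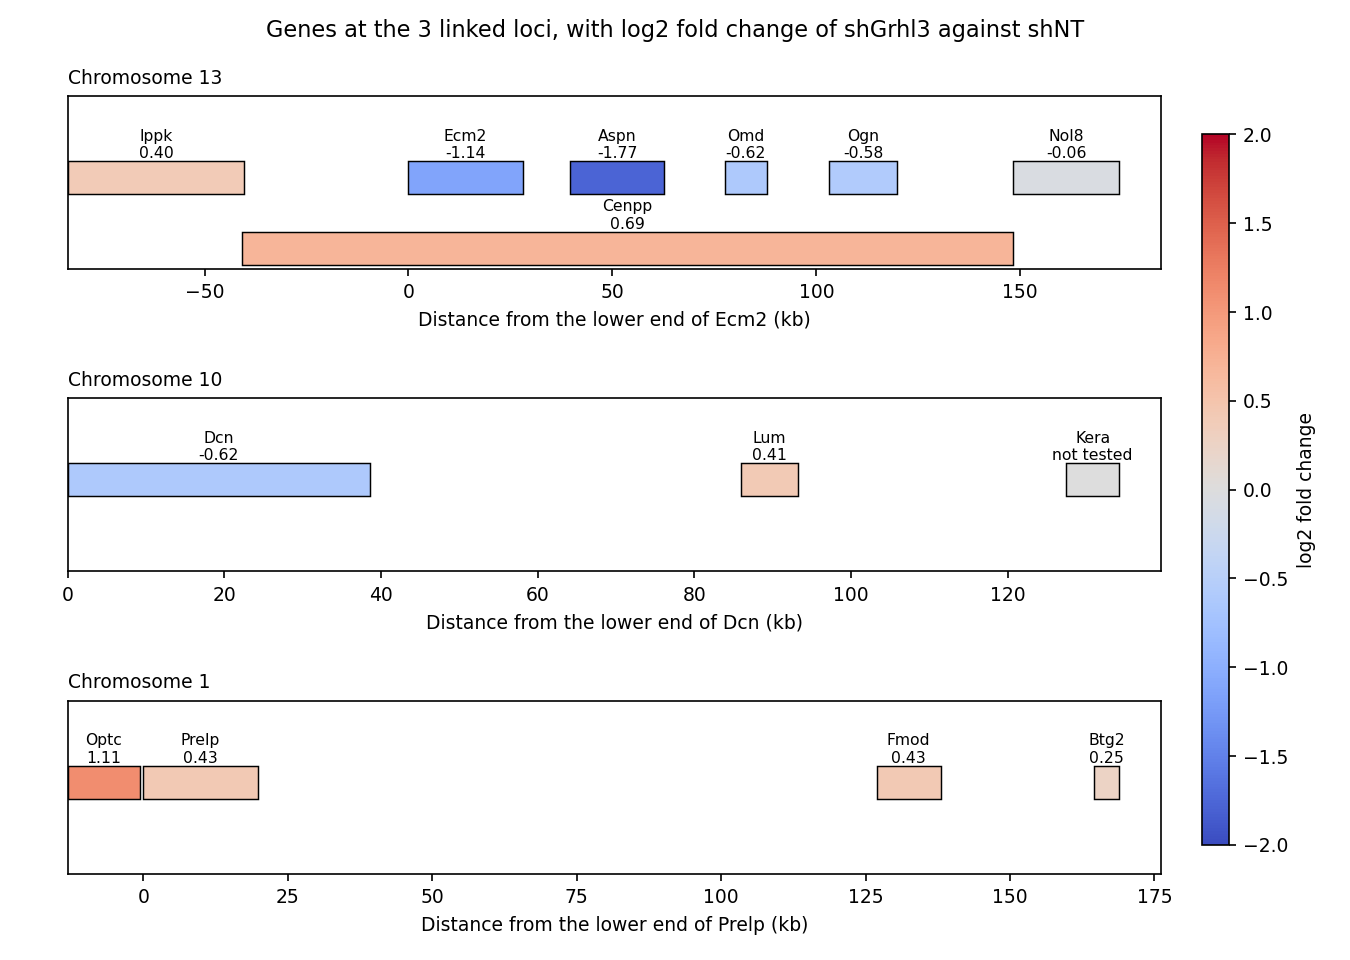
Protein-coding genes at the 3 linked groups, drawn to scale as boxes against distance in kb from the lower end of the first member, with colour and number giving the log2 fold change. On chromosome 13 the 4 members are blue (-1.77 to -0.58), between the flanking genes Ippk (0.40) and Nol8 (-0.06) and within the span of Cenpp (0.69). Omd, Cenpp and Nol8 did not pass the test.

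The sequences before RefSeq transcript starts are shown for the members of the linked groups that were called, so that genes which fell together (Ecm2, Aspn, Ogn) can be set beside a pair that rose together (Prelp, Fmod). Each is the 250 bases before a transcript start on GRCm38.p6, the assembly behind mm10, written 5′ to 3′ on the gene's strand. For Ecm2, Aspn, Ogn and Fmod that start is the outer end of the gene span. For Prelp it lies 8701 bases inside the span, so that the Prelp window precedes an inner start and not the outer end of the gene. The windows are chr13:49504560-49504809 (+) for Ecm2, chr13:49544193-49544442 (+) for Aspn, chr13:49607765-49608014 (+) for Ogn, chr1:133921402-133921651 (-) for Prelp and chr1:134037004-134037253 (+) for Fmod. Capitals mark TATAAA or GGAATG on either strand.
Ecm2: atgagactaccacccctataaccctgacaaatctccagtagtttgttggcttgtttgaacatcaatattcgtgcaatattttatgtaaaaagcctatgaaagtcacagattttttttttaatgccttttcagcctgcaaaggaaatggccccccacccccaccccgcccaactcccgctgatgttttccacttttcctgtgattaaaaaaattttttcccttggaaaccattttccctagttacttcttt
Aspn: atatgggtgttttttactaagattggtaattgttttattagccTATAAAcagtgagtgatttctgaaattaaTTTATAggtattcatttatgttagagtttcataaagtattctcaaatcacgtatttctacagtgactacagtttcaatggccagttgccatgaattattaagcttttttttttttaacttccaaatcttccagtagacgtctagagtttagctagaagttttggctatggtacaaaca
Ogn: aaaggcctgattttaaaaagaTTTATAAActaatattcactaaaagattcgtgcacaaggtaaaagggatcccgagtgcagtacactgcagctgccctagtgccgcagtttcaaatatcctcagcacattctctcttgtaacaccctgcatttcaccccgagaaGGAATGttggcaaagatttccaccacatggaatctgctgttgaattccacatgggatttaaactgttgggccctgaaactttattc
Prelp: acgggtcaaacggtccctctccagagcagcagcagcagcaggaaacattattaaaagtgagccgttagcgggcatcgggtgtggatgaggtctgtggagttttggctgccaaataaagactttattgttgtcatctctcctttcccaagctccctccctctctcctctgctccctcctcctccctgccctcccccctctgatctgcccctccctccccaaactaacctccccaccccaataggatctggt
Fmod: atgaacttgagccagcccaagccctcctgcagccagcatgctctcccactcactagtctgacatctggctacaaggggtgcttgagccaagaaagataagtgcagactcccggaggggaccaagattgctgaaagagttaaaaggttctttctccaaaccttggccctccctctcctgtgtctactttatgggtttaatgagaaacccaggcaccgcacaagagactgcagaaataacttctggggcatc

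Windows were matched for 8 of the 10 genes (not Dcn and Lum), 9 windows in all since Podn has 2, of which the one with 64.0% G and C also precedes an inner start. The letters AACCNGTT, a form of the Grainyhead-like binding motif, were in 0 of the 9 windows on either strand, and in 1.79% of 32851 windows of all genes. TATAAA was in 2 of the 9, those of Aspn and Ogn, against 12.4% of all windows, and GGAATG, the TEAD motif, was in 1, that of Ogn, against 12.6%. TGANTCA, the AP-1 motif, was in 0 of the 9 and in 6.75% of all. In the Ogn window the TATAAA matches on the 2 strands overlap each other. Base composition varied widely: the window of Aspn held 30.0% G and C, those of Omd, Ecm2 and Ogn 38.4%, 40.0% and 42.0%, and those of Fmod, Prelp and Bgn 51.2%, 55.6% and 64.4%. The Podn windows held 64.0% and 78.0%, beside a median of 52.4% over all windows. All 4 members on chromosome 13 were below that median.

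Of 8 further family members, 4 were too low to test. Kera and Epyc, which lie beyond Lum on chromosome 10, had 0 counts in every library. Chad and Nyx had at most 12 counts in a library. Of the 4 that could be tested, 1 was higher and 0 were lower. It was Tsku, whose product tsukushi binds BMP and TGF-beta family ligands, with 51.3 and 50.9 CPM in shNT and 119 and 115 CPM in shGrhl3 (log2 fold change 1.20, SE 0.09, adjusted p = 7.99e-10). The rise was seen in both libraries and was close in size to that of Podn.

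The enzymes that build the chains on these core proteins moved in both directions. Of 27 genes for chondroitin, dermatan and keratan sulfate synthesis, 25 were tested, of which 9 rose, 10 fell and 6 did not pass, with a median log2 fold change of -0.10. Beside this list and the others, 17.9% of all tested genes were called lower and 17.1% higher. B3gnt7 and B4galt4, which extend keratan sulfate chains, both rose. B3gnt7 had 21 and 17 counts in shNT and 182 and 171 in shGrhl3, a rise of 8.36-fold (log2 fold change 3.06, SE 0.28, adjusted p = 1.25e-08). B4galt4 rose from 71.5 ± 0.636 to 141 ± 7.14 CPM (SD, n = 2, adjusted p = 1.16e-08), and Chpf, a chondroitin polymerizing factor, from 105 ± 6.00 to 195 ± 8.02 CPM (SD, n = 2, adjusted p = 3.19e-08).

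The next enzymes are named after their values were seen. Dse and Dsel, the epimerases that turn chondroitin into dermatan sulfate, both fell, with log2 fold changes of -1.01 and -0.57. Of the enzymes that start and link the chains, Xylt1 (-0.82) and Xylt2 (-0.71) fell whereas Fam20b (0.50), B4galt7 (0.93) and B3gat3 (0.66) rose, and the value of Xylt1 was -0.53 (adjusted p = 0.0358) without shGrhl3 replicate 1. Of the called chondroitin, dermatan and keratan sulfotransferases, Chst11 (0.56) was higher and kept its call under all 13 alternatives. Chst15 (0.59) was higher, a call that ended under 5 alternatives, among them leaving out any 1 library (adjusted p from 0.058 to 0.219). Chst14 (-0.34) was lower, a call that ended under 7, among them without shNT replicate 1 (0.0871), shNT replicate 2 (0.166) or shGrhl3 replicate 2 (0.340). Ust (-0.52) was lower, a call that ended without shNT replicate 1 (0.0864). The calls of Chst1, Chst2 and Chst3, which were lower, ended without shNT replicate 2 (adjusted p = 0.108, 0.300 and 0.107). Without shGrhl3 replicate 2 the calls of Chst2 (adjusted p = 0.0597) and Chst3 (adjusted p = 0.151) ended as well, and without shGrhl3 replicate 1 that of Chst2 (adjusted p = 0.0754).

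Collagens were mixed too, in a list that holds fibril-forming chains, the fibril-associated Col12a1 and Col14a1 and the chains of collagen VI, which forms beaded filaments. Of 13 listed, 12 were tested, with 3 higher, 5 lower and 4 without a call and a median of -0.13. Col6a3, Col11a1 and Col6a1 fell by 0.80, 0.72 and 0.68 on the log2 scale (adjusted p = 1.58e-07, 3.54e-07 and 6.64e-06). The risers were Col1a1 (0.53), Col12a1 (0.43) and Col5a2 (0.20). The Col5a2 call (adjusted p = 0.0439) ended without shNT replicate 1 (0.186) and without shNT replicate 2 (0.398).

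Of 12 tested receptors that decorin or biglycan can bind, 6 fell, 0 rose and 6 did not pass, with a median of -0.25. Over all tested genes 17.9% were called lower and 17.1% higher. Among the receptors that did not pass, only P2rx4 (-0.24) had a negative value. The calls of Cd44, Egfr and Tlr4 ended under 3, 1 and 2 of the 13 alternatives. Cd14 and Tlr2, the innate immune receptors of biglycan, had log2 fold changes of -1.54 and -0.81 (adjusted p = 5.84e-05 and 2.27e-05). Both are expressed by macrophages, whose tested markers were mostly lower in the same libraries, with Csf1r higher. The part of that shift in these values was not tested. Igf1r, a growth factor receptor bound by decorin, fell from 376 ± 9.24 to 274 ± 35.9 CPM (SD, n = 2, adjusted p = 0.000293).

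The list of TGF-beta and BMP genes, whose ligands several members bind, also holds the matricellular genes Ccn2 and Ccn4. It gave 2 higher, 6 lower and 7 not passed of 15 tested, with a median of -0.03. Bmp4 fell from 46.3 ± 0.316 to 22.9 ± 1.19 CPM, the receptor gene Tgfbr2 from 210 ± 20.0 to 122 ± 4.55 CPM and Ccn4, a matricellular gene, from 723 ± 0.280 to 444 ± 2.51 CPM (SD, n = 2, adjusted p = 2.19e-07, 3.15e-07 and 1.97e-07). Tgfb2 rose from 302 ± 19.0 to 466 ± 17.7 CPM (SD, n = 2, adjusted p = 2.17e-06). The other riser, Acvr1 (0.23, adjusted p = 0.0475), lost its call under 6 of 13 alternatives, among them without shNT replicate 1 (0.211), without shNT replicate 2 (0.232) and without shGrhl3 replicate 2 (0.117).

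Proteases that process or cleave these proteins gave 2 higher, 3 lower and 7 not passed of 12 tested, with a median of -0.01. Htra1, a secreted serine protease that can degrade decorin and biglycan, rose by 1.26 on the log2 scale, from 151 ± 14.2 to 361 ± 6.63 CPM (SD, n = 2, adjusted p = 1.32e-10). Mmp14 rose by 0.33 on the log2 scale, a call lost without shNT replicate 2 (adjusted p = 0.103). Mmp8, a collagenase of leukocytes, had 249 and 314 counts in shNT and 23 and 20 in shGrhl3 (log2 fold change -3.87, adjusted p = 1.63e-10). Tested macrophage markers were mostly lower in the same libraries, with Csf1r higher, and the part of that shift in the Mmp8 value was not tested. Mmp12, a macrophage elastase with 503 and 801 counts in shNT and 61 and 8 in shGrhl3, did not pass (log2 fold change -4.42, adjusted p = 0.0879) but did with DESeq2 (adjusted p = 0.00219) and without shGrhl3 replicate 1 (0.0386). Mmp3 and Mmp2 also fell, with log2 fold changes of -1.58 and -0.47. Bmp1, which trims the propeptide of biglycan, stood at 448 ± 28.4 and 448 ± 2.29 CPM (SD, n = 2), a log2 fold change of 0.00 with a 95% interval of -0.16 to 0.17.

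**Figure D5:**
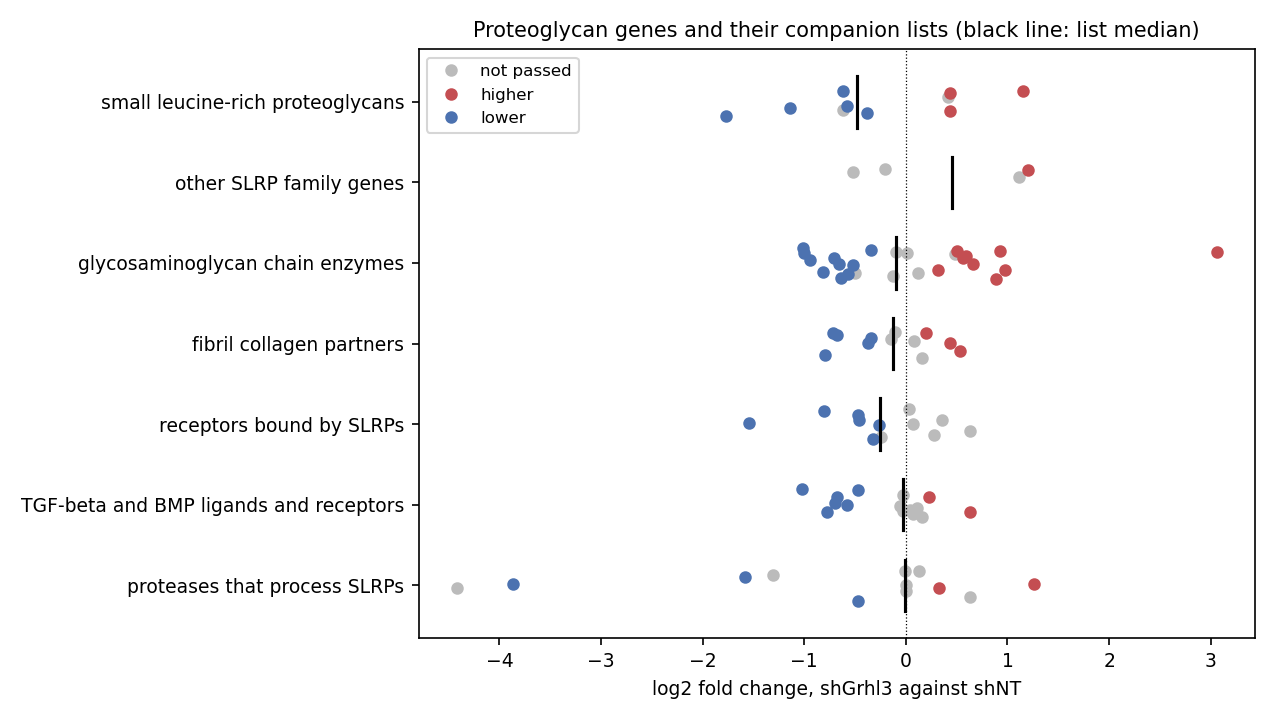
Log2 fold change of each tested gene in the proteoglycan group and its 6 companion lists, red for higher, blue for lower and grey for not passed, with a black line at the list median. The proteoglycans split into 5 lower and 3 higher with a median of -0.48, and the medians of the chain enzymes, collagens, receptors, TGF-beta genes and proteases lay between -0.25 and -0.01, while that of the 4 other family genes was 0.45.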

How the data were processed

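The authors deposited a table of raw read counts per gene, in which 4 columns match the labels of the RNA-seq libraries. The columns named shGrhl1 and shGrhl2 were read as the 2 shGrhl3 replicates. Tools named, per the submitters' processing notes, are Bowtie2 2.2.6, HISAT2 2.0.1 and cutadapt 1.9.1 with the build mm10, and also ChIPseeker and MACS2, with no role stated. No source used here names the read counter, the annotation or the strand setting. The CUT&Tag samples of the series were not analysed here.

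Rows that name no gene (1438, at most 0.00872% of a library's counts) were left out. Counts were TMM-scaled, filtered with filterByExpr at a minimum count of 10 (15324 genes kept) and tested with edgeR 4.0.16 (quasi-likelihood, robust) in R 4.3.3, with Benjamini-Hochberg adjustment over all tested genes and a threshold of 0.05. The SE was taken as the absolute log2 fold change divided by the square root of the F statistic. Intervals built from it are at the 95% level and, unlike the adjusted p, are not adjusted for multiple testing. The pipeline was tested on simulated data with known changes. Libraries of a group differed by more than sampling noise (chi-square per degree of freedom 15.2 in shNT and 9.18 in shGrhl3). These figures include Rn18s, which had 110296 and 322261 counts in the shNT libraries. Rn18s weighs heavily in the shNT value, so the values do not rank the groups by spread. Each library was counted as 1 replicate, although the labels do not tell whether they were separate cultures. CPM ± SD values are over 2 libraries.

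Members and companion lists were chosen with earlier results of these data known. The text names all members and, from each companion list, up to 3 genes with the lowest p past the threshold, plus every called gene of a direction with 3 or fewer calls. Genes outside that rule, among them neighbours, Bmp1 and calls that other settings end, were named after their values were seen. No exon lengths were at hand, so levels are not compared between genes, and no protein sequences were used. Gene positions and windows before transcript starts come from RefSeq on GRCm38.p6. Alternatives were other scalings, low-count filters, DESeq2 1.42.0, limma 3.58.1 (voom), summed duplicate symbols and a replicate block. Others left out the rows Rn18s and Rn7s6, or each library in turn.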

Additional observations from a re-analysis of the deposited data

How the results depend on the processing

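The 8 called proteoglycan genes kept their direction and their call under all 13 alternatives. Lum passed in 7 of them, at adjusted p from 4.24e-05 (without shNT replicate 2) to 0.0369 (library size only), so the number of members called higher was 3 or 4, while 5 were lower throughout. Bgn was the least secure member without shNT replicate 2 (adjusted p = 0.0396). The summed level of the family, -0.34 on the log2 scale, was -0.14 without Bgn, an alternative chosen after seeing the data, and -0.39 to -0.30 with 1 library left out. With 1 library left out, chain enzymes called lower ranged from 6 to 9 (10 with all), receptors called higher from 0 to 1 (0 with all), and proteases and TGF-beta genes called higher each from 1 to 2 (2 with all). The TGF-beta count was also 1 with no filter on low counts, with DESeq2 and with the replicate block. The value of Nol8 (-0.06) ranged from -0.13 to 0.03 with 1 library left out and reversed without shGrhl3 replicate 2, and the cause was not tested. Of 47 called companion genes, 32 kept their call throughout. No shared effect of replicate number was seen: deviations of same-numbered libraries correlated at -0.0845 across 15324 genes, which are not independent. That value cannot exclude that same-numbered libraries shared a culture or batch, which the labels do not state. With the replicate block, Lum passed (0.44, adjusted p = 0.0155) whereas Col5a2 (0.109), Acvr1 (0.0962) and Chst14 (0.055) did not, and all tested genes gave 2364 higher and 2525 lower calls. Depth limits Omd and Grhl3, which had few counts (9 to 31 in a library). Omd could not be tested at a minimum count of 50.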
